A study of Arabidopsis thaliana with 16 samples.

Results

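A set of 123 of 22746 ATH1 probe sets was high in 1 of the 2 arrays of wild-type (WT) mature somatic embryos and near background in the other. Members had a signal of 500 or more in replicate 2, 100 or less in replicate 1, and at least an 8-fold difference between both. The thresholds were met by 126 probe sets, and *OLEO3*, *PAP85* and *AT3G15670* were set aside by name. *M17* and *AT3G22490*, also set aside by name, did not meet the thresholds. The members were therefore chosen by the signals of the 2 WT somatic embryo arrays, so the levels of that group are given as a description only, with no test. The annotation paired 69 members with 1 gene each, 3 with several genes and 51 (41.5%) with none, against 38.4% unpaired among all probe sets.

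Transcripts of *vtc2* and WT tissues were measured at 4 stages of somatic embryogenesis, with 2 biological replicates, and hence 2 arrays, in each of the 8 groups. Both genotypes are in the Col-0 background and were grown under long days. The *vtc2* tissue came from a single homozygous T-DNA insertion line in a gene of ascorbate synthesis, the *vtc2-5* allele in the study's methods. The first stage was the bent-cotyledon zygotic embryo (ZE), dissected by hand from the seed and not cultured. Explants were then sampled during induction on medium with 2,4-D, a synthetic auxin, at 7 d (D7I) and again at 14 d (D14I). The last stage was the mature somatic embryo (SE), which formed during a further 14 d on medium without 2,4-D. The explants are mixed tissues, and fewer cells of a type cannot be told apart from less RNA per cell in any value below.

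Late in seed development the embryo fills with storage proteins and oil and then acquires tolerance of drying. Storage globulins of the cupin superfamily make up the protein bodies, oleosins coat the oil bodies, and late embryogenesis abundant (LEA) proteins and dehydrins accumulate as water is lost. In *Arabidopsis* these genes are switched on by LEAFY COTYLEDON, FUSCA and abscisic acid signalling, and are normally silenced as the seedling develops.

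Values are signals on a linear scale, which the authors scaled to a 2% trimmed mean of 500 on each array. Over all probe sets the array medians were between 148 and 199, and between 69.2 and 78.1% of probe sets exceeded a signal of 30. Signals below 30 are weak, and a fold that rests on one has an uncertain size. The WT SE arrays were not alike in other respects. The 3′ to 5′ signal ratio of the actin control was 2.48 in WT SE replicate 1 and 4.32 in replicate 2, and 1.73 to 5.05 over the 15 arrays other than replicate 1. The ratios of the other controls were closer, 1.44 and 2.13 for GAPDH and 1.83 and 2.24 for ubiquitin. The median signal of 69 plastid-encoded probe sets was 217 in replicate 1 and 64.0 in replicate 2. The summed signal of 8 nuclear photosynthesis genes was 20201 in replicate 1 and 14416 in replicate 2, against 1133 to 95168 on the arrays other than replicate 1. Of these 8 genes, 7 were within 2-fold between the WT SE arrays. The part in the difference between the 2 arrays was not tested.

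The members were near background in WT SE replicate 1 alone. Their median signal there was 26.2, against 2007 in WT SE replicate 2 and 736 to 2988 on the arrays other than replicate 1. In replicate 1, 77 members were below 30, against 0 to 10 members on each of the other arrays. That array was the lowest of all 16 for 113 members, and for 106 it lay at least 2-fold below the lowest of the other 15. Replicate 2 was within the range of the 14 arrays of the other groups for 113 members and above all of them for 10. The fold between both arrays was 9.07 to 2009, with a median of 116.

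**Figure D1:**
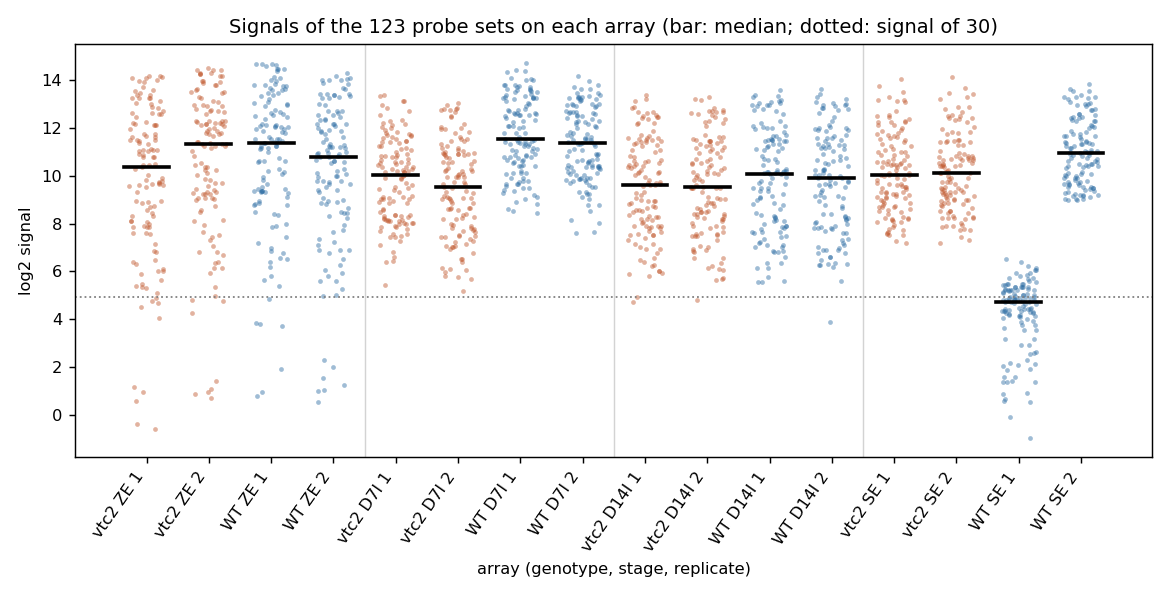
Log2 signal of the 123 probe sets on each of the 16 arrays, by stage, *vtc2* left of WT, with 1 point per probe set, a bar at the median and a dotted line at a signal of 30. The points of WT SE replicate 1 lie at or below a signal of 90.7, whereas the medians of the other arrays lie between 736 and 2988.

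The members nearest the threshold on replicate 2 were the probe set of *AT1G15160* and *AT1G15150* at 500.4, unnamed probe sets at 508 and 518. Just outside it were an unnamed probe set at 499.4, *AT2G38465* at 479 and *AT5G56100* at 471. The members nearest the threshold on replicate 1 were *AT1G04560* at 90.7, unnamed probe sets at 83.4 and 75.3. Outside that threshold were the oleosin gene *AT3G01570* at 100.1, an unnamed probe set at 110 and the LEA gene *AT3G02480* at 112, which had 14612, 17094 and 7138 in replicate 2. The smallest folds among members were 9.07 at the probe set of *AT1G18020* and *AT1G17990*, 9.75 at *AT5G03795* and 10.4 at *AT3G17130*. The largest outside were 7.83 at *AT5G60760*, 6.86 at an unnamed probe set and 5.56 at *AT1G12845*. Several excluded probe sets were thus close to the members in both arrays.

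The 2 arrays of no other group differed in this way. Between replicates, 83 members were within 2-fold in *vtc2* ZE, 96 in *vtc2* D7I, 123 in *vtc2* D14I, 120 in *vtc2* SE, 99 in WT ZE, 120 in WT D7I and 122 in WT D14I. In the same order, the shares of members were 67.5, 78.0, 100, 97.6, 80.5, 97.6 and 99.2%. Over all probe sets the shares were 83.0, 84.7, 84.0, 85.3, 81.9, 83.0 and 85.8%. The members thus had the lower share in *vtc2* ZE, *vtc2* D7I and WT ZE. The members did shift together by a smaller amount among zygotic embryos. Of the 123, 112 were higher in replicate 2 of *vtc2* ZE, with a median log2 difference between replicates of 0.62, and 108 were lower in replicate 2 of WT ZE, with a median of −0.57. Over all probe sets the medians in those groups were 0.08 and 0.01. Replicate 2 was the higher for 56.7% of all probe sets in *vtc2* ZE and for 50.6% in WT ZE. At D7I the medians of the members were −0.23 in *vtc2* and −0.36 in WT.

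**Figure D2:**
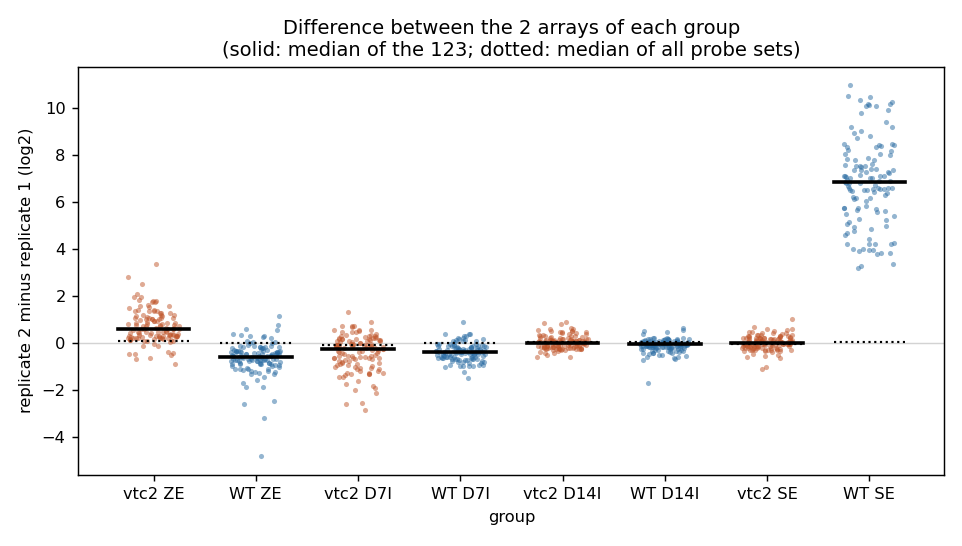
Difference between the 2 arrays of each group (log2, replicate 2 minus replicate 1) for the 123 probe sets, with a solid bar at their median and a dotted bar at the median of all probe sets. The WT SE median of 6.86 follows from the choice of members, and the median of the other groups lies between −0.57 and 0.62.

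The same thresholds applied to the other groups found few probe sets. In the opposite direction in WT SE, high in replicate 1 and low in replicate 2, there were 8, among them plastid-encoded genes such as *ndhD* and *atpB*. With replicate 2 high there were 25 in *vtc2* D14I and 8 in *vtc2* SE, most of them plastid-encoded, and 2 in *vtc2* ZE. With replicate 1 high there was 1 in *vtc2* D7I. None of these was a member. Across all probe sets the log2 signals of the 2 WT SE arrays correlated at r = 0.922, and at 0.935 without the members, a description over genes, which are not independent replicates.

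The *vtc2* somatic embryos lay between the WT arrays. Both *vtc2* SE arrays exceeded WT replicate 1 for all 123 members, and both were below WT replicate 2 for 112, against 52.2% of all probe sets. Both follow in part from the choice of members, since replicate 1 was selected for low and replicate 2 for high signals. The median log2 difference of the *vtc2* SE mean was −0.86 from WT replicate 2, against −0.24 over all probe sets. Of the members 72 were within 2-fold of replicate 2, against 77.9% of all probe sets. It was 6.05 from WT replicate 1, against −0.08 over all probe sets. For 6 members both *vtc2* arrays exceeded WT replicate 2, among them *AT2G34700*, of the pollen Ole e 1 family, with 8958 and 7436 in *vtc2* SE against 17.5 and 2671 in WT SE. The comparison with WT SE rests on which WT array is used, and no test was made.

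Among seed storage protein genes, the annotation paired 4 of the 12 listed with a probe set, and 2 were members. Here and below, a listed gene counts as measured only if the annotation paired a probe set with it alone. Any listed gene on an unpaired probe set is not counted, so the counts of members in a list may be too low. *AT2G28490*, a vicilin-like cupin, had 9213 and 10920 in *vtc2* SE, against 67.3 and 12101 in WT SE. Its signal was 16436 and 19470 in *vtc2* ZE and 25032 and 16690 in WT ZE. Only on WT SE replicate 1 was it below 6308.

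*AT1G03890*, a 12S globulin of the cruciferin family, had 5947 and 7444 in *vtc2* SE, against 29.3 and 10538 in WT SE. At D14I it had 1102 and 946 in *vtc2* and 842 and 892 in WT, and at D7I 2628 and 1074 in *vtc2* and 9666 and 6569 in WT. Apart from WT SE replicate 1, it was lowest at D14I in WT and low at D14I in *vtc2*, and high again in *vtc2* SE. *AT4G36700*, a further cupin family gene, followed the same course more steeply. Its signal was 15875 and 19467 in *vtc2* ZE, 1236 and 644 in *vtc2* D7I, 421 and 460 in *vtc2* D14I and 4434 and 5160 in *vtc2* SE. In WT it was 22481 and 17267 in ZE, 1497 and 1400 in D7I, 333 and 295 in D14I and 4.43 and 5708 in SE. The summed signal of the 4 storage protein genes was 195 in WT SE replicate 1 and 34113 in replicate 2. It was 13652 to 68934 on the arrays other than replicate 1. The sum holds the 2 members and *PAP85*, which met the same thresholds. Its difference between the WT SE arrays thus follows largely from the choice of members.

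Of the list of 10 oil body genes 3 were measured, and 0 were members. *OLEO3* was set aside by name, and *AT3G01570* lay just outside the threshold on replicate 1. The third, *AT1G67360*, hardly varied, with 2097 and 2493 in WT SE. *AT2G25890* and *AT3G18570*, both of the oleosin family, are members that do not belong to the list. *AT2G25890* had 1556 and 1491 in *vtc2* SE, against 37.6 and 3615 in WT SE. At D7I it had 4077 and 4029 in *vtc2* and 10956 and 9382 in WT, its highest values. *AT3G18570* had 940 and 621 in *vtc2* D7I, against 4391 and 3294 in WT D7I. The groups did not overlap for either gene at D7I.

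LEA genes were the largest listed group, with 11 members among 30 measured of 45 listed. Not all LEA genes varied in this way, since 6 of the 30 were within 2-fold between the WT SE arrays. Another 17 were at least 8-fold higher in replicate 2, but these include the 11 members and *AT3G15670*, which met the 8-fold threshold by the rule. The summed signal of the 30 LEA genes was 18085 in WT SE replicate 1 and 67730 in replicate 2. It was 38222 to 148725 on the arrays other than replicate 1. The sum holds the 11 members and *AT3G15670*, so its difference between the WT SE arrays also follows in part from that choice.

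*LEA18*, *M10*, *LEA4-5*, *AT3G53040*, *AT2G23110*, *AT1G72100* and the dehydrin gene *AT4G39130* rose between ZE and D7I in both genotypes. *M10* had 0.66 and 1.63 in *vtc2* ZE and 1328 and 2196 in *vtc2* D7I, and 1.94 and 2.88 in WT ZE and 3556 and 2744 in WT D7I. It was lower at D14I, with 183 and 338 in *vtc2* and 712 and 439 in WT, and had 1894 and 1636 in *vtc2* SE, against 1.43 and 2007 in WT SE. *LEA18* stayed high through D14I, with 5434 and 6318 in *vtc2* and 8682 and 7714 in WT, and had 946 and 1122 in *vtc2* SE against 33.9 and 3254 in WT SE. The dehydrin gene *AT2G21490* (symbol *LEA*), *AtLEA4-1*, *AT3G17520* and *AT4G21020* were not called between ZE and D7I in WT. In *vtc2* their courses were not alike. *AT2G21490* had 3253 and 3125 in *vtc2* D7I against 9841 and 15093 in *vtc2* ZE, and fell there by 1.93 ± 0.27. *AtLEA4-1* fell by 1.14 ± 0.24, whereas the differences of *AT3G17520*, 0.92 ± 0.48, and *AT4G21020*, 0.43 ± 0.49, were not called.

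Of 20 regulators of seed maturation, the annotation paired 4 with a probe set, and 1 of these was a member, the MADS-box gene *AGL67*. It had 267 and 368 in *vtc2* SE, against 0.929 and 1134 in WT SE. At D7I it had 139 and 110 in *vtc2* and 521 and 646 in WT. None of the paired genes of the following lists was a member. These were 8 of nuclear photosynthesis, 2 of endosperm and seed coat, and 2 of the 21 listed for abscisic acid signalling and response. The last 2 were *COR15A* and *COR15B*, with signals of at most 85.4 on any array.

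The other strongly expressed members have varied roles. *AT1G04560*, which encodes an AWPM-19-like membrane protein, had 14005 and 12930 in *vtc2* SE, against 90.7 and 12611 in WT SE. *AT3G54940*, a papain-family cysteine protease gene, had 4985 and 4868 in *vtc2* SE, against 41.0 and 6816 in WT SE, and at least 8380 on each of the ZE and D7I arrays. *AT3G56350*, of the manganese and iron superoxide dismutase family, had 3522 and 5381 in *vtc2* SE, against 48.1 and 7922 in WT SE. *ATOEP16-2* encodes a channel protein of the plastid outer envelope, *AT5G01300* a phosphatidylethanolamine-binding protein, and *AT2G38905* a small membrane protein of the low-temperature and salt-responsive family. Their WT SE replicate 2 signals were 5533, 5648 and 4254, and their replicate 1 signals 24.7, 40.7 and 25.5. *AT3G63040*, *AT5G66780*, *AT5G45690*, *AT4G31830*, *AT2G21820* and *AT5G07330* had 3433 to 10044 in replicate 2 and 2.58 to 50.7 in replicate 1.

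Some members are neighbours in the genome. *AT1G54860* and the short-chain dehydrogenase gene *AT1G54870* are adjacent on chromosome 1, but their courses differed. *AT1G54860* had 17830 and 22010 in *vtc2* ZE and 26001 and 16748 in WT ZE, whereas *AT1G54870* had 85.1 and 173 in *vtc2* ZE and 172 and 162 in WT ZE. *AT2G38900*, a gene for a protease inhibitor of the potato inhibitor I type, is adjacent to *AT2G38905* on chromosome 2. *BGLU19*, a β-glucosidase gene, and *AT3G21380*, a gene for a jacalin-type lectin, lie on chromosome 3 with 1 protein-coding gene between them, and both were below 30 on all 4 ZE arrays.

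Tests of the members used a fit of the 14 arrays outside WT SE, so that the difference which chose them did not enter. Log2 differences are given ± their standard error, from limma with Benjamini-Hochberg adjustment over all 22746 probe sets. Calls needed an adjusted p below 0.05 together with a change of 2-fold or more. With all 16 arrays in the fit the median residual SD of the members was 1.75, against 0.40 with the 14 arrays, and the members called by comparison were 0 to 22.

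On entry into culture the members divided. Between D7I and ZE in *vtc2*, 29 members rose, a share to be read against 18.3% of all probe sets, and 60 fell, against 12.8%. The median difference of the members was −0.997, against 0.19 over all probe sets. In WT, 45 rose, against 16.1% of all probe sets, and 22 fell, against 12.5%, and the median was 0.36 against 0.14. The genotypes use separate arrays, but their tests share the residual variance of each probe set. The agreement between the genotypes given next was not counted over all probe sets. All 22 that fell in WT also fell in *vtc2*, and all 29 that rose in *vtc2* also rose in WT. Another 38 fell in *vtc2* without being called in WT, 16 rose in WT without being called in *vtc2*, 18 were called in neither, and 0 were called in opposite directions.

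The steepest rises belonged to genes near background in zygotic embryos. *LCR67*, a plant defensin gene, had 6755 and 7301 in *vtc2* D7I against 0.759 and 1.94 in *vtc2* ZE, and 11631 and 10023 in WT D7I against 13.0 and 1.44 in WT ZE. The log2 differences were 12.50 ± 0.89 in *vtc2* (limma, adjusted p = 1.06e-05) and 11.28 ± 0.89 in WT (limma, adjusted p = 2.33e-05). *BGLU19*, *M10* and *AT3G21380* rose by 9.93, 10.69 and 7.21 in *vtc2* and by 10.85, 10.37 and 9.75 in WT. *AT4G39130* rose by 3.11 ± 0.50 in *vtc2* and by 7.34 ± 0.50 in WT. *AT3G53040* rose by 5.16 in *vtc2* and 6.16 in WT. Because the ZE signals of these genes, other than *AT3G53040*, were all below 30, the sizes are uncertain.

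The named genes with the steepest falls had signals of 1743 or more on every ZE array. *AT1G04660*, a glycine-rich protein gene, had 1315 and 540 in *vtc2* D7I against 17608 and 22004 in *vtc2* ZE, and 1358 and 1132 in WT D7I against 22722 and 17034 in WT ZE. It fell by 4.55 ± 0.37 in *vtc2* and by 3.99 ± 0.37 in WT (limma, adjusted p = 2.14e-05 and 5.25e-05). *AT4G36700* fell by 4.30 in *vtc2* and 3.77 in WT. *AOP3*, whose product modifies glucosinolate side chains, fell by 5.04 in *vtc2* and 3.50 in WT. *AT2G34700* fell by 4.39 in *vtc2* and fell by 3.12 in WT. *AT3G17130*, of the invertase and pectin methylesterase inhibitor family, fell by 4.95 in *vtc2* and fell by 2.997 in WT. *AT1G60970*, of the coatomer zeta subunit family, fell by 4.72 in *vtc2*.

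**Figure D3:**
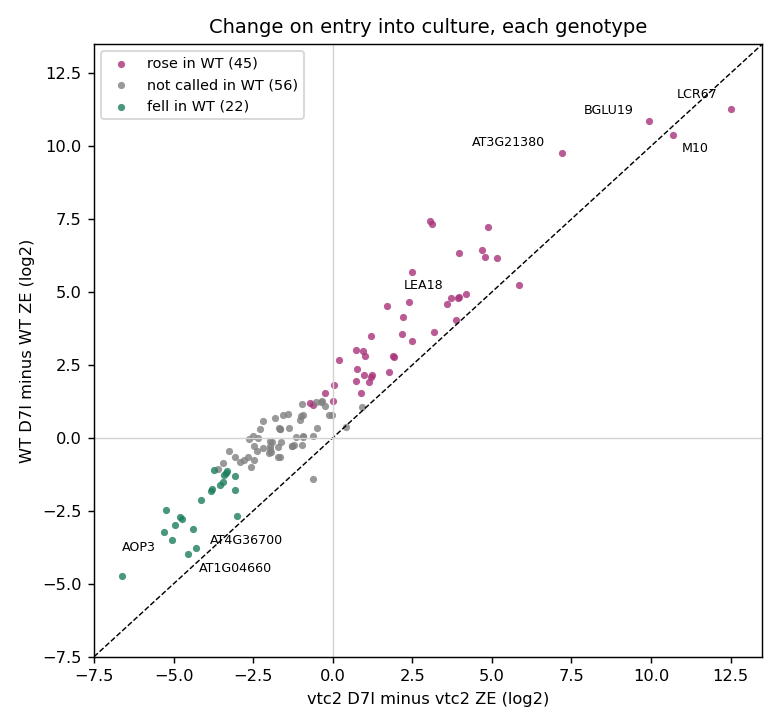
Change of the 123 probe sets on entry into culture (log2, D7I minus ZE), *vtc2* on the horizontal and WT on the vertical axis, coloured by the call in WT, with a dashed line where both changes are equal. Most points lie above the line, and the 22 that fell in WT fell in *vtc2* too.

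Of the 30 LEA genes measured, 19 rose and 2 fell between ZE and D7I in *vtc2* (median 2.18), and 18 rose and 0 fell in WT (median 1.84). The 4 storage protein genes had 0 higher and 4 lower in *vtc2* and 0 higher and 1 lower in WT, and the 3 oil body genes 3 lower in *vtc2* and 2 lower in WT. The 8 nuclear photosynthesis genes all fell in each genotype, with medians of −4.94 in *vtc2* and −4.37 in WT. The median over all probe sets was 0.19 in *vtc2* and 0.14 in WT.

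In the second week of induction few members were called in *vtc2*, whereas most were called lower in WT. Counts of calls do not compare the genotypes. The direct test, the genotype effect at D14I minus that at D7I, called 1 member, with a median of 1.62 over the members. Between D14I and D7I in *vtc2*, 8 members fell, against 3.01% of all probe sets, and 2 rose, against 1.83%. The median was −0.01, against 0.01 over all probe sets. In WT, 77 fell, against 5.23%, and 1 rose, against 4.54%, with a median of −1.66 against −0.03. The 8 that fell in *vtc2* also fell in WT, an overlap that was not counted over all probe sets. The member that rose in WT, 246299_at, rose in *vtc2* as well, and 248647_at fell in WT and rose in *vtc2*. The WT count was 40 without WT D7I replicate 1, 37 without WT D14I replicate 1 and 35 without WT D14I replicate 2. The *vtc2* count of 10 was 1 without *vtc2* D7I replicate 2 and 1 without either *vtc2* D14I array.

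Among the genes that fell in WT, *AT1G03890* had 842 and 892 at D14I, against 9666 and 6569 at D7I (log2 difference −3.20 ± 0.45, limma, adjusted p = 0.00347). *AOP3* fell by 3.22 ± 0.40 and *AT2G38900* by 3.62 ± 0.74. *AT5G59170*, a gene for a hydroxyproline-rich protein, had 1532 and 1485 at D14I, against 17729 and 10651 at D7I, and fell by 3.19 ± 0.50. *AT1G70985* fell by 4.29 ± 1.01, with 47.1 and 14.7 at D14I and 717 and 369 at D7I. Its call was lost without any 1 of the WT D7I and D14I arrays, and that of *AT2G38900* without WT D7I replicate 1 or either WT D14I array. In *vtc2* the named genes that fell were *M10* by 2.78 ± 0.50, *AT1G48660* by 1.74 ± 0.43 and *AOP3* by 1.62 ± 0.40. The calls of *AOP3* and *AT1G48660* had adjusted p values of 0.046 and 0.0479 (limma) and were lost in 16 and 13 of 21 other settings, among them median centring and the replicate block. That of *M10* was lost in 4, including without *vtc2* D7I replicate 2 or either *vtc2* D14I array. Of the 30 LEA genes 2 fell and 2 rose in WT, and of the 4 storage protein genes 4 fell, beside 5.23% of all probe sets lower and 4.54% higher. The difference between the lists was not tested.

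**Figure D4:**
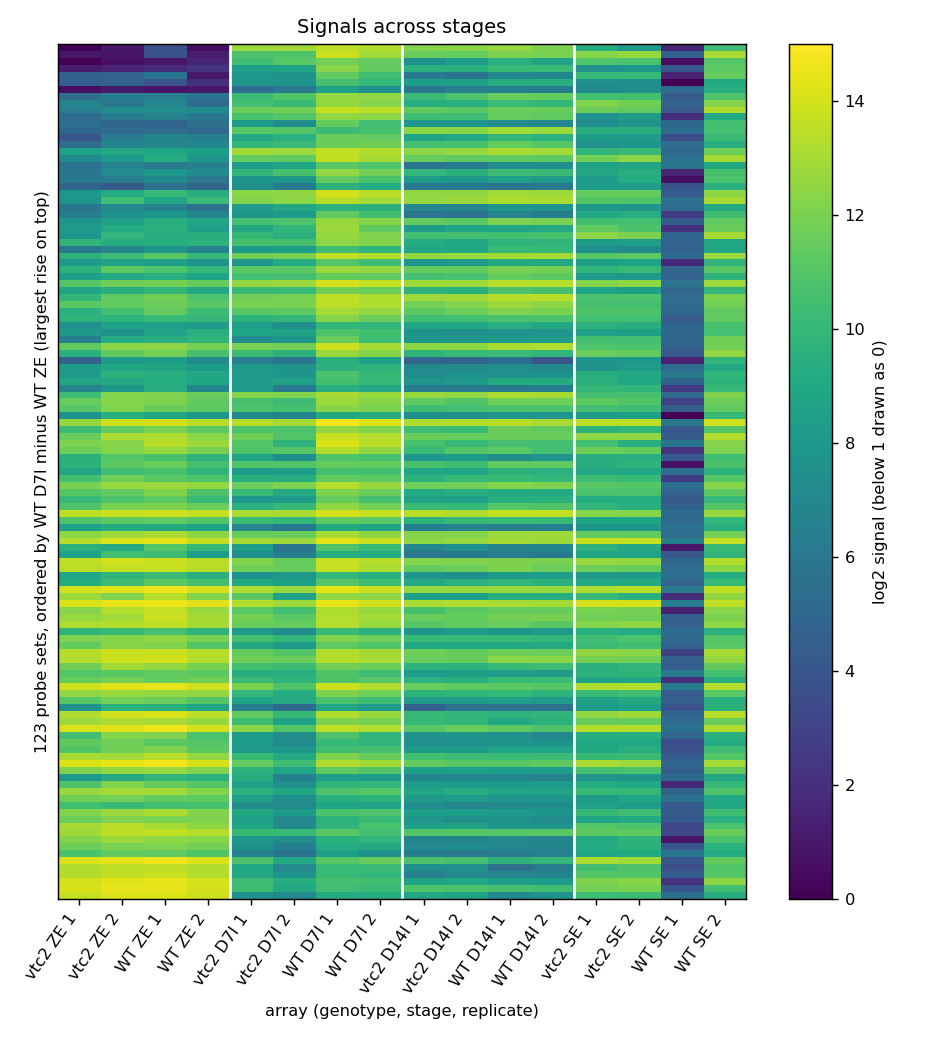
Log2 signal of the 123 probe sets (rows) on the 16 arrays (columns, *vtc2* left of WT within each stage), with rows ordered by the WT change between D7I and ZE and the largest rise on top. The top rows are dark on the ZE arrays, the bottom rows are brightest there, and WT SE replicate 1 is dark throughout.

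At D7I the members were lower in *vtc2* than in WT almost without exception. Of the 123, 122 had a difference below 0 and 92 were called lower, against 2.61% of all probe sets, and 0 were called higher, against 3.15%. The median difference was −1.90, a fold of 3.73, against a median of 0.00 over all probe sets. Both *vtc2* arrays were below both WT arrays for 120 members, against 27.2% of all probe sets. The exception in direction was 246299_at, at 0.64. The count of 92 was 14 without WT D7I replicate 1, 57 without WT D7I replicate 2, 51 without *vtc2* D7I replicate 1 and 19 without *vtc2* D7I replicate 2, while the median stayed between −2.09 and −1.63.

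The lectin gene *AT3G21380* had 328 and 396 in *vtc2* D7I, against 5194 and 2654 in WT D7I, a log2 difference of −3.36 ± 0.31 (limma, adjusted p = 0.00304). *AT5G59170* had 2059 and 868 in *vtc2*, against 17729 and 10651 in WT, with −3.36 ± 0.50. *AT5G55750*, also for a hydroxyproline-rich protein, had 235 and 242 in *vtc2*, against 2731 and 1688 in WT, with −3.17 ± 0.47. *AT2G38900* and the short-chain dehydrogenase family gene *AT3G05260* had differences of −3.40 ± 0.74 and −3.35 ± 0.77. All 5 were picked among called members whose arrays did not overlap, so each was lower on every *vtc2* array by that choice. The call of *AT3G05260* was lost in 11 of 21 other settings and that of *AT2G38900* in 6, including without either WT D7I array. Those of *AT5G59170* and *AT5G55750* were lost in 3, including without WT D7I replicate 1 or *vtc2* D7I replicate 2.

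Members of the storage protein list, *AGL67* and the oleosin family genes were also lower at D7I in *vtc2*. *AT1G03890* had −2.25 ± 0.45, *AT2G28490* −1.17 ± 0.27, *AGL67* −2.23 ± 0.52 and the oleosin family genes *AT2G25890* −1.32 and *AT3G18570* −2.32. Of the 11 LEA members, those with the smallest differences were *AT4G21020* at −0.53, *LEA18* at −0.64 and *AT3G17520* at −0.68, none of which was called. *LCR67*, at −0.62 ± 0.89, and *AT4G36700*, at −0.70 ± 0.29, were not called either. Over the lists, 4 of 4 storage protein genes, 2 of 3 oil body genes, 6 of 30 LEA genes, 1 of 4 regulators (*AGL67*) and 0 of 8 nuclear photosynthesis genes were called lower.

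**Figure D5:**
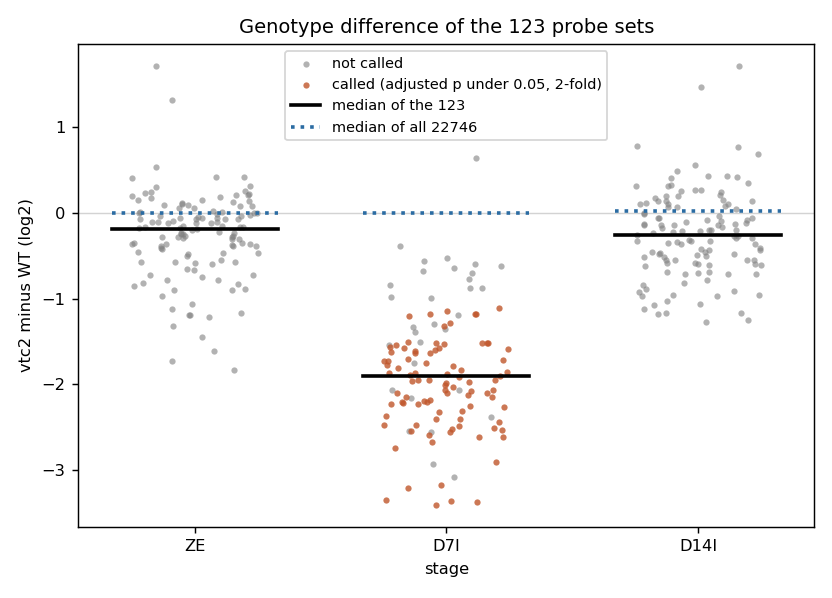
Difference between *vtc2* and WT (log2) of the 123 probe sets at ZE, D7I and D14I, called differences in colour, with a solid bar at the median of the members and a dotted bar at that of all probe sets. The members lie around −1.90 at D7I, and 0 were called at ZE or D14I.

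At the other stages no member was called between the genotypes. In zygotic embryos the median difference was −0.19, against −0.01 over all probe sets, with 0 called by limma. An unadjusted p under 0.05 was found for 10 of the 123 members, against 1805 of all 22746 probe sets. Of all probe sets 0.022% were called higher and 0.044% lower there. At D14I the median was −0.26, against 0.02 over all probe sets, with 0 called. At that stage 20 members had an unadjusted p under 0.05, against 1280 of all 22746 probe sets. Of all probe sets 0.0176% were called higher and 0% lower at D14I.

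The genotype effect at D14I minus that at D7I had a median of 1.62 over the members and was above 0 for 120 of 123, against a median of 0.01 over all probe sets. By limma 1 member was called, 248647_at, against 0.11% of all probe sets called higher and 0.0747% lower. An unadjusted p under 0.05 was found for 81 members, against 3243 of all 22746 probe sets. The called probe set had 190 and 133 in *vtc2* D7I, against 585 and 642 in WT D7I. At D14I it had 486 and 421 in *vtc2*, against 137 and 197 in WT. The number called was 0 to 44 under the alternatives tried.

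As *vtc2* explants became somatic embryos, more members rose than fell. Members were chosen for a high signal on a WT SE array, which may favour genes that are high in somatic embryos of either genotype. The shares over all probe sets carry no such choice. Between SE and D14I in *vtc2*, 41 rose, against 11.8% of all probe sets, and 17 fell, a share of 13.8% near the 11.7% of all probe sets, with a median of 0.79 against −0.16. The count of 58 was 33 without *vtc2* D14I replicate 1 and 37 without *vtc2* SE replicate 1. *AOP3* had 2056 and 1966 in *vtc2* SE, against 93.8 and 131 in *vtc2* D14I, a log2 difference of 4.18 ± 0.40 (limma, adjusted p = 0.000163). *AT3G60730*, a pectin methylesterase gene, rose by 3.77 ± 0.83, *AT4G36700* by 3.44 ± 0.29, *AT1G70985* by 3.04 ± 1.01 and *M10* by 2.82 ± 0.50. *AT1G03890* rose by 2.70 ± 0.45. The call of *AT1G70985* (limma, adjusted p = 0.045) was lost in 12 of 21 other settings, among them the replicate block.

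Of the 17 members that fell as *vtc2* embryos formed, 4 were LEA genes. *LEA18* had a difference of −2.51 ± 0.21, *AT1G72100* −2.55 ± 0.24, *AT3G53040* −2.39 ± 0.33 and *AT3G17520* −2.00 ± 0.48. *LCR67* had 612 and 301 in *vtc2* SE, against 4550 and 5064 in *vtc2* D14I, with −3.48 ± 0.89. The call of *LCR67* was lost without either *vtc2* D14I array or *vtc2* SE replicate 2, and that of *AT3G17520* without *vtc2* D14I replicate 1 or *vtc2* SE replicate 1. Over the lists, 10 of 30 LEA genes fell and 1 rose, 1 of 4 storage protein genes rose, and 8 of 8 nuclear photosynthesis genes rose.

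The direction of a member on entry into culture in WT was set beside its later course in *vtc2*, which uses other arrays. Of the 22 that fell on entry in WT, 15 rose between D14I and SE in *vtc2* and 0 fell. Among all 2840 probe sets that fell on entry, 39.7% rose and 4.65% fell. Of the 45 members that rose on entry, 9 rose and 14 fell, against 9.58% and 27.1% of all 3662 probe sets that rose on entry. Of the 56 not called, 17 rose and 3 fell, against 7.45% and 9.51% of all 16244 not called. The median differences in *vtc2* were 1.58, −0.49 and 0.82 over the members of these classes, against 0.82, −0.53 and −0.20 over all probe sets of the same classes.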

How the data were processed

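Transcripts were measured on 16 Affymetrix ATH1 arrays, 2 per group. As deposited by the authors, the table holds intensities on a linear scale, 1 per probe set and array, with a 2% trimmed mean of 500 on every array. The methods describe Robust Multichip Average values, which the table does not hold, and the submitters' processing notes name GCOS. Scanner files were not used here, so background and detection could not be set again, and the number of arrays limits the precision.

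Intensities were put on the log2 scale with no offset. After 64 control probe sets were set aside, 22746 were fitted in limma 3.58.1 (R 4.3.3) with 1 mean for each of 7 groups over the 14 arrays outside WT SE, with 7 residual and 1.61 prior degrees of freedom. The multiclass SAM test that the methods name was not run. The script was tested on simulated data. P values measure the spread between the biological replicates that the labels name.

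The members and gene lists were chosen with earlier results of these data known. Named were members in a list, the 25 members with 1 gene and the highest WT SE replicate 2 signal, and those nearest the thresholds. Up to 5 each way per comparison were also named. These had the largest changes among called members with 1 gene whose compared arrays did not overlap. *AT3G18570*, 246299_at and 248647_at were named after their values were seen. Genes were paired through the platform annotation, and all 69 single genes matched RefSeq loci of TAIR10.1, used for names and neighbours. Alternatives were other normalizations, an offset, a filter, a trended prior, a replicate block, all 16 arrays and leaving out each array. No sequence was used, so promoter motifs are not given.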

Additional observations from a re-analysis of the deposited data

Results flagged for a closer look

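The genotype effect differed between D14I and D7I, by the test of that difference, for 1 of the 123 members. Probe set 248647_at had a difference of 3.41 ± 0.37 on the log2 scale between the genotype effects, higher in *vtc2* at D14I and lower at D7I. Its genotype difference at D14I was not itself called (limma, adjusted p = 0.217). With the replicate block, or with all 16 arrays in the fit, no member was called for the difference of the genotype effects.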

How the results depend on the processing

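No named result reversed, and 15 of 43 named results kept their call in every setting. With all 16 arrays, where the difference that chose the members enters the residual, the members called were 22 for WT D7I against ZE, 1 for WT D14I against D7I, 22 for *vtc2* D7I against ZE, 0 for *vtc2* D14I against D7I, 2 for *vtc2* SE against D14I, 0 for *vtc2* against WT at D7I and 0 for the difference of the genotype effect. The count for the difference of the genotype effect, 1 in the fit used here, was 6 after quantile normalization, 3 after median centring, 44 with an offset of 30, 8 after a filter at 30, 43 with a trended prior and 0 with the replicate block, and the cause was not tested. Median centring gave 6 for *vtc2* D14I against D7I, and a trended prior 1 for *vtc2* against WT at D14I.

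Leaving out 1 array at a time gave 59 to 71 called for WT D7I against ZE, 35 to 85 for WT D14I against D7I, 77 to 93 for *vtc2* D7I against ZE, 1 to 10 for *vtc2* D14I against D7I, 33 to 62 for *vtc2* SE against D14I, 14 to 99 for *vtc2* against WT at D7I, 0 to 2 at ZE, 0 to 0 at D14I and 0 to 16 for the difference of the genotype effect. The lone array left in a group was assumed to vary like the other groups.

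Replicate numbers did not pair the samples. Deviations from the group means correlated, over 21 pairings of groups, from −0.101 to 0.165, where 1 exceeded 0.1. The replicate block gave 77 called for *vtc2* against WT at D7I and 0 for the difference of the genotype effect. The rule found 124 members after quantile normalization, 126 at 4-fold and 114 at 16-fold.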
